A study of Mus musculus with 6 samples.

Results

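TRIM genes were followed in sorted thymocytes of Kansl1fl/fl CD4-Cre mice, called KANSL1-deficient here, and of their controls. All protein-coding genes of the count table whose symbol is Trim followed by a number were taken, which gave 56 of 29626 genes. The KANSL1-deficient group was 3 mice of genotype Kansl1fl/fl CD4-Cre, in which Cre is driven by the Cd4 gene. The control group was 3 littermates of genotype Kansl1fl/fl without Cre, which the submitters label WT although they carry the same floxed allele. All mice were 8 weeks old, and RNA was taken from CD4+CD8+ double-positive thymocytes sorted by flow cytometry. Because only the KANSL1-deficient mice carry Cre, effects of Cre and of Kansl1 loss cannot be told apart. KANSL1 belongs to the NSL complex, together with the histone acetyltransferase KAT8. The comparison asked which TRIM transcripts differed between the genotypes.

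TRIM proteins are named for a shared front part of a RING finger, B-boxes and a coiled coil. The RING finger makes most of them ubiquitin ligases, which pass ubiquitin from an E2 enzyme to a target, and the domain at the other end chooses the target. Many carry a PRY-SPRY domain there, and several of these act in antiviral defence and are induced by interferon. Others end in a PHD finger and bromodomain that read chromatin, in NHL repeats that bind RNA or protein, or in a membrane anchor.

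Library totals lay between 19361968 and 22459830 counts. Kansl1 was read at 146, 168 and 188 CPM (counts scaled to library size) in KANSL1-deficient libraries and at 214, 189 and 230 CPM in control libraries, a log2 fold change of -0.33 ± 0.14 (SE) that missed the threshold (quasi-likelihood test in edgeR, adjusted p = 0.171 by the method of Benjamini and Hochberg). These counts cover the whole gene, including exons that Cre leaves in place, so they check the labels only weakly. All 12 listed double-positive thymocyte markers were tested and none was lower, with a median log2 fold change of 0.31, and Rag2 and Dntt were among those that were higher. Of the markers of other cells, the macrophage list summed to between 10.7 and 17.9 CPM in KANSL1-deficient and between 11.3 and 16.9 CPM in control libraries, and the dendritic list to between 5.70 and 6.69 CPM and between 7.59 and 9.10 CPM. In the macrophage list Adgre1 had 6 counts in KANSL1-deficient libraries and 0 in control libraries, Lyz2 142 and 35, Itgam 110 and 50, and Cd68 401 and 687, and none of its 6 tested genes was called (1 had an unadjusted p under 0.05, and DESeq2 called none). Of the 5 tested dendritic genes edgeR called none, 1 had an unadjusted p under 0.05 (22.6% of all genes) and DESeq2 called 1 (14.2% of all genes). Among them Zbtb46 averaged 0.829 CPM in KANSL1-deficient and 2.78 CPM in control libraries, and 2 of the 5 estimates were positive. Of the other lineage lists, Ighm, the immunoglobulin heavy chain gene of B cells (472 CPM in KANSL1-deficient and 282 CPM in control libraries; quasi-likelihood test in edgeR, adjusted p = 0.0166), Gata3 of CD4 cells (226 and 123 CPM; adjusted p = 0.00644) and Gzma of cytotoxic cells (47.9 and 21.8 CPM; adjusted p = 0.0376) were higher. Other genes of these lists went the other way. In the CD8 list Runx3 (16.1 and 25.9 CPM; adjusted p = 0.0522, same test) and Itgae (0.394 and 1.92 CPM; adjusted p = 0.0900) were lower by estimate. DESeq2 called 3 of the 4 tested genes of that list (14.2% of all genes). S1pr1 of the CD4 list (-0.09 ± 0.27) and Cd79b of the B cell list (-0.15 ± 0.19) had negative log2 fold changes within their SE. The part of other cells in the results was not tested. The 24 listed G2/M genes were all higher in KANSL1-deficient libraries, with a median log2 fold change of 1.82, and 13 of them passed without control replicate 2. In bulk RNA, fewer cells of a type and less RNA per cell cannot be told apart.

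The TRIM family was broadly read in these cells. Of the 56 members, 38 had at least 1 count in every library, and 29 had a mean of at least 1 FPKM, a level per length of gene. Trim11, a ubiquitin ligase of the PRY-SPRY class, stood far above the rest. It had 201 ± 30.7 FPKM in KANSL1-deficient and 213 ± 27.3 FPKM in control libraries (SD, n = 3 each), which was 36.9% and 40.2% of the FPKM summed over the family. Of all genes in the table, 99.5% had a lower mean FPKM.

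By mean FPKM over the 6 libraries, Trim11 was followed by Trim35 (44.4 FPKM), Trim25 (32.8 FPKM), Trim59 (30.2 FPKM), Trim12a (27.5 FPKM) and Trim28 (25.9 FPKM). Below them came Trim8 (18.5 FPKM), Trim13 (14.9 FPKM), Trim30a (14.4 FPKM) and Trim56 (11.8 FPKM). Trim59 had 42.8 ± 11.1 FPKM in KANSL1-deficient and 17.5 ± 1.58 FPKM in control libraries. The other 9 of these abundant members had fitted log2 fold changes no further from 0 than the 0.47 of Trim25.

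**Figure D1:**
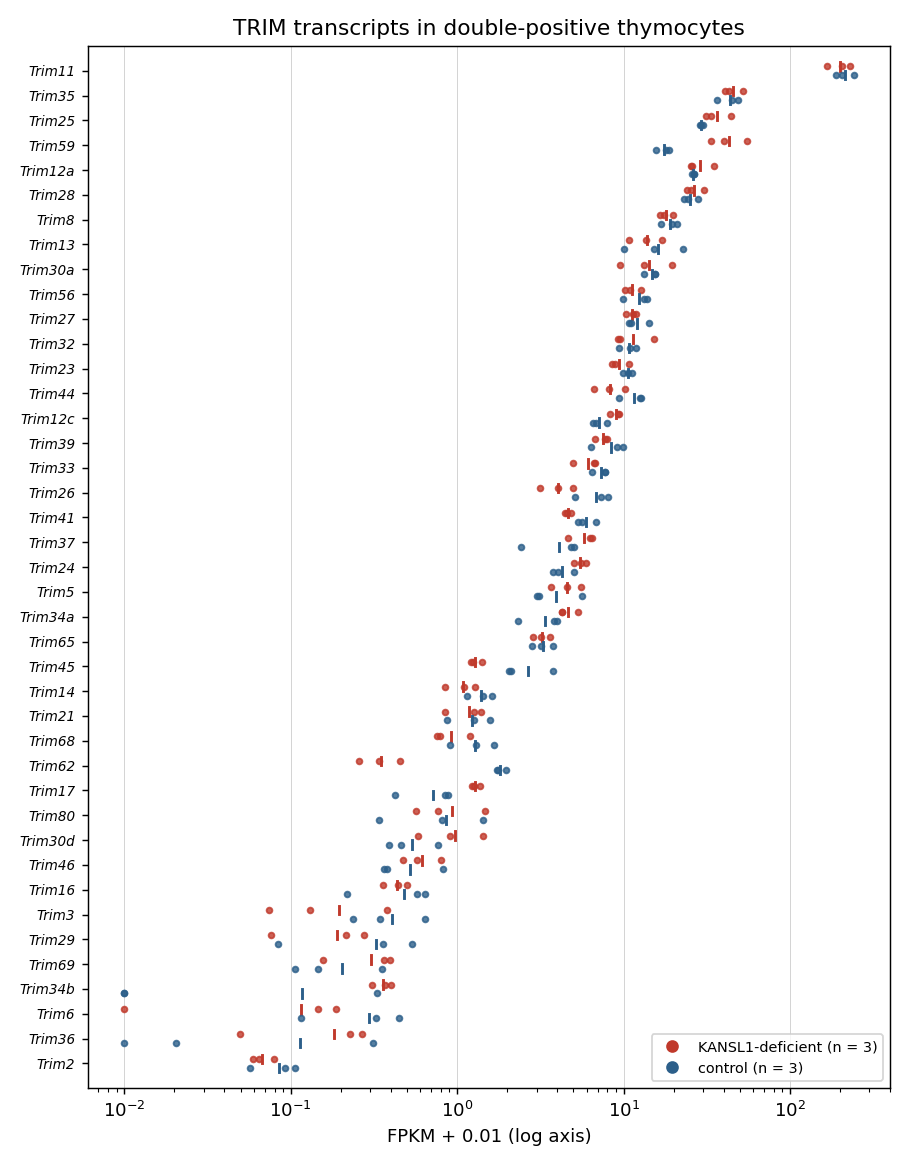
FPKM of the 41 tested TRIM genes on a log axis (0.01 was added so that values of 0 can be drawn), with the KANSL1-deficient libraries (red) above the control libraries (blue); points are libraries and bars are means of 3. Trim11 stands alone at about 207 FPKM, the groups of Trim59 and Trim62 are set well apart, and those of most other genes overlap or touch.

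The low-count filter kept 41 of the 56 members, and 15 were not tested. Among the 41, Trim59 was higher and Trim62 was lower in KANSL1-deficient libraries (quasi-likelihood test in edgeR, Benjamini-Hochberg adjusted over 15353 genes). These 2 members are 4.88% of those tested, and over all tested genes 6.76% passed, 3.85% higher and 2.91% lower, so the family's share was no larger than the background. An unadjusted p under 0.05 was found for 9 of the 41 members, against 22.6% of all genes. The libraries of the 2 groups did not overlap in CPM for 11 members, or 26.8%, and this was so for 28.5% of all genes.

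Fitted log2 fold changes were positive for 26 members and negative for 15. Their median was 0.07, beside -0.02 over all genes, and it was -0.07, beside -0.17 over all genes, when library totals replaced the TMM scaling. DESeq2 gave an adjusted p for 38 members and called 5 of them, Trim24, Trim25, Trim45, Trim59 and Trim62, with a background of 14.2%. Of 37 members with an adjusted p in the authors' deposited table, the same 5 were under 0.05, as were 14.9% of all genes in it. The authors' own mark of significance was given to Trim59 and Trim62, and not to Trim24, Trim25 and Trim45. Limma-voom called Trim59 and Trim62, with a background of 7.99%. Trim59 and Trim62 were called in each of the 16 alternative settings tried.

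**Figure D2:**
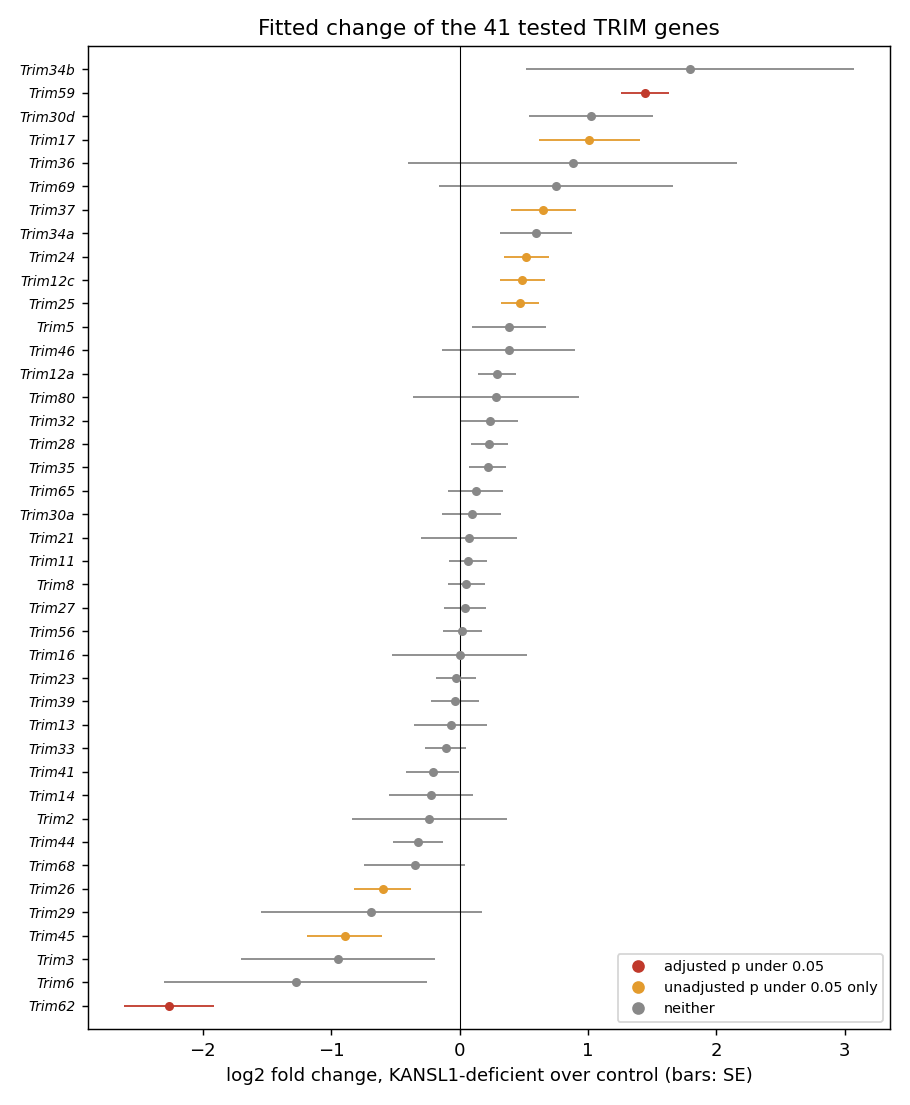
Log2 fold change of the 41 tested TRIM genes, KANSL1-deficient over control, with standard errors, ordered by size. Trim59 (1.44) and Trim62 (-2.26) are the only genes past the adjusted threshold; Trim34b has a larger positive estimate (1.80) with a standard error of 1.28.

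Trim59 encodes a RING ligase held in the endoplasmic reticulum membrane, known for raised levels and growth-promoting effects in human tumour cells. It lies on the minus strand of chromosome 3 (GRCm39, chr3:68942621-68952088). The 250 bases before its RefSeq start site are shown because 2 motifs known from promoters of G2/M genes were found there. They are the cell cycle homology region (CHR, TTTGAA, here as TTCAAA on the shown strand, 85 to 80 bases before the start) and the CCAAT box (here as ATTGG, 61 to 57 bases before the start), both in capitals.

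Trim59 promoter, RefSeq GRCm38.p6, chr3:69044743-69044992, minus strand: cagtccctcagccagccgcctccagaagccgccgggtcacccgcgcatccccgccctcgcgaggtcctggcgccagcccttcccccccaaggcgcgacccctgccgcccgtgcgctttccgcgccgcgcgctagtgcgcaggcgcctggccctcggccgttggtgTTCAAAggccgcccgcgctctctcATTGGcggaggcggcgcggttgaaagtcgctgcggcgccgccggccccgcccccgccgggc

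The 2 matches do not overlap. On either strand the CHR letters stood in 16.0% and the CCAAT letters in 33.8% of the 32851 mouse promoter windows of the same length, so both are common. Among 56 windows of the 43 TRIM genes that could be matched, 5 held the CHR and 24 held CCAAT. The Trim59 window had a GC content of 77.6%, beside a median of 52.4% over all windows.

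Trim59 had 198, 119 and 138 CPM in KANSL1-deficient replicates 1 to 3, against 59.0, 51.1 and 57.4 CPM in control replicates 1 to 3. Every KANSL1-deficient library was above every control library, and replicate 1 was the highest. The means were 152 ± 41.5 CPM in KANSL1-deficient and 55.8 ± 4.19 CPM in control libraries (SD, n = 3 each), and the fitted difference was 2.72-fold. The log2 fold change was 1.44 ± 0.18 (SE; quasi-likelihood test in edgeR, adjusted p = 0.00324), and it ran between 1.20 and 1.59 over all settings.

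The gene beside Trim59 differed in the same direction. Smc4, which encodes a condensin subunit that compacts mitotic chromosomes, lies 664 bp away on the opposite strand, with the 3' ends of both genes facing each other. It averaged 977 ± 69.0 CPM in KANSL1-deficient and 572 ± 41.8 CPM in control libraries, with a log2 fold change of 0.77 ± 0.11 (SE; quasi-likelihood test in edgeR, adjusted p = 0.00472). Whether reads running past the end of Smc4 were counted for Trim59 was not tested. Of the 50-base words in Trim59 transcripts, 5.62% also occur in other genes.

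The G2/M genes were higher in the same libraries as Trim59. Their summed CPM was 1542, 1694 and 1806 in KANSL1-deficient replicates 1 to 3, against 691, 419 and 410 in control replicates 1 to 3. Trim59 was highest in KANSL1-deficient replicate 1, which had the lowest G2/M sum of its group. The part of cycling cells in the Trim59 difference was not tested.

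Trim62 encodes a PRY-SPRY ligase known to ubiquitinate CARD9, an adaptor of antifungal immunity, in mice. It lies on the plus strand of chromosome 4 (GRCm39, chr4:128777373-128805121). Its promoter window is shown for comparison with that of Trim59. It held none of the 4 motifs searched, which besides the CHR and CCAAT were the core of the interferon-stimulated response element (a pair of GAAA words with 2 unspecified bases between) and 4 forms of an E2F site (TTTCCCGC, TTTGGCGC, TTTCGCGC and TTTGCCGC). The response element core and the E2F forms were absent from the Trim59 window as well. These absences say only that the letters are not in these windows.

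Trim62 promoter, RefSeq GRCm38.p6, chr4:128883794-128884043, plus strand: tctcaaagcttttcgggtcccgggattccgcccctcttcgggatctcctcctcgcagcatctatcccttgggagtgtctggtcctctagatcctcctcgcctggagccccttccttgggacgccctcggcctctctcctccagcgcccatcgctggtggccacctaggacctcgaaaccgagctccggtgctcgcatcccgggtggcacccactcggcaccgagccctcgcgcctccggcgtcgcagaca

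Trim62 had 36, 28 and 46 counts in KANSL1-deficient replicates 1 to 3, against 167, 215 and 190 counts in control replicates 1 to 3. Scaled to depth these were 1.77, 1.32 and 2.30 CPM in KANSL1-deficient and 8.08, 9.46 and 8.36 CPM in control libraries. All KANSL1-deficient libraries were low, and the groups were far apart. The means were 1.80 ± 0.492 CPM in KANSL1-deficient and 8.63 ± 0.733 CPM in control libraries (SD, n = 3 each), and the log2 fold change was -2.26 ± 0.35 (SE; quasi-likelihood test in edgeR, adjusted p = 0.00533). Over all settings it ran between -2.47 and -1.07, the last on log2 of FPKM plus 1, where the pseudocount understates changes of low genes. Per length, Trim62 was at 0.341 ± 0.0989 FPKM in KANSL1-deficient and 1.81 ± 0.124 FPKM in control libraries. No 50-base word of Trim62 was shared with another gene.

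**Figure D3:**
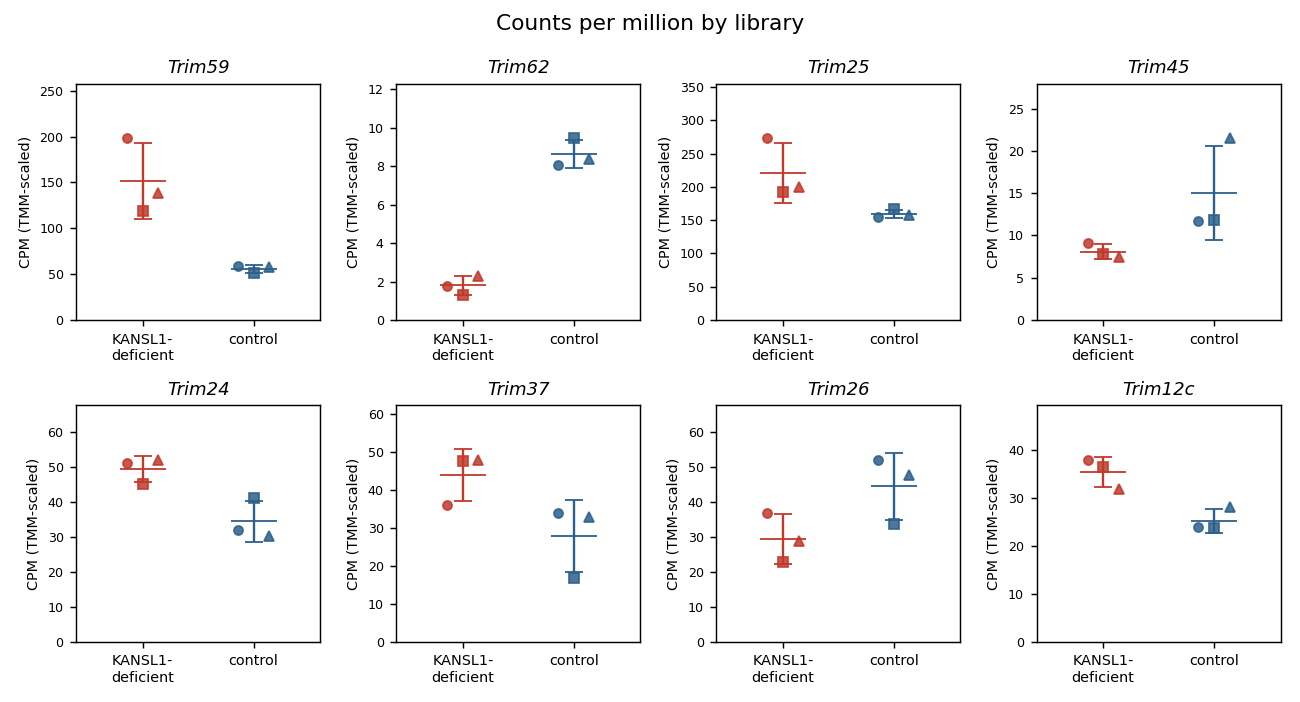
CPM (scaled by TMM) of 8 TRIM genes in the KANSL1-deficient libraries (left, red) and control libraries (right, blue); circles, squares and triangles are replicates 1, 2 and 3, and lines are the mean and SD of 3. The group means of Trim59 and Trim62 differ by more, as a fold, than those of the other 6, which missed the adjusted threshold.

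The chromatin-reading members have a PHD finger and a bromodomain. Trim24, a cofactor of nuclear receptors, had 51.1, 45.1 and 52.1 CPM in KANSL1-deficient libraries, against 32.1, 41.2 and 30.3 CPM in control libraries. The groups did not overlap, but control replicate 2 came close to the KANSL1-deficient libraries. The log2 fold change of 0.52 ± 0.17 (SE) missed the threshold (quasi-likelihood test in edgeR, adjusted p = 0.0949), and DESeq2 gave an adjusted p under 0.05.

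Trim28, also called KAP1, is the corepressor that KRAB zinc finger proteins bring to retroelements. It had 108, 112 and 131 CPM in KANSL1-deficient libraries, against 95.1, 112 and 90.6 CPM in control libraries. These values overlapped, and the log2 fold change was 0.23 ± 0.14 (SE; quasi-likelihood test in edgeR, adjusted p = 0.376). Trim28 overlaps Zbtb45 on the opposite strand over 6137 bp of the gene models. Zbtb45 fell (log2 fold change -0.72 ± 0.17, SE; quasi-likelihood test in edgeR, adjusted p = 0.0297), and without stranded counts the reads of both genes cannot be told apart where their exons overlap.

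Trim33, which takes part in SMAD signalling downstream of TGF-beta, had 52.2, 70.0 and 66.8 CPM in KANSL1-deficient libraries, against 71.0, 61.0 and 71.4 CPM in control libraries. The groups overlapped (log2 fold change -0.11 ± 0.16, SE; quasi-likelihood test in edgeR, adjusted p = 0.771). Trim66, best known from testis, was too low to be tested. It had 0 counts in each KANSL1-deficient library, against 9, 12 and 4 counts in control libraries. With 3 counts put in for the KANSL1-deficient group it was 7.75-fold lower. The control counts were taken as exact, so this value is not a lower bound. It covers no spread between mice and stands at a level of 0.0394 FPKM in control libraries.

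Partners of these proteins were counted in the same fit, from lists of related genes. Of 26 tested genes of the KAP1 corepressor machinery, 5 were higher (19.2%, against 3.85% of all genes) and none lower, and the median log2 fold change was 0.27. Among the 5 were Uhrf1 (1.15 ± 0.23) and Dnmt1 (0.82 ± 0.18), which maintain DNA methylation, and Cbx5 (1.04 ± 0.23), an HP1 protein. Leaving out any 1 library gave counts between 0 and 4, with 0 without control replicate 2 or KANSL1-deficient replicate 2. Of 9 tested TGF-beta and SMAD genes none was called by edgeR, 3 had an unadjusted p under 0.05 (22.6% of all genes did), and DESeq2 called 1 (14.2% of all genes).

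Interferon-responsive members were taken as a list of 12 genes known to be induced by interferon in mouse or human cells, of which 11 were in the table and 10 were tested. None passed with edgeR or limma-voom, 2 (against 22.6% of all genes) had an unadjusted p under 0.05 and DESeq2 called 1, Trim25. The fitted log2 fold change was positive for 9 of the 10, with a median of 0.38, and the groups did not overlap for 5 of the 10, against 28.5% of all genes. In 1 of these 5, Trim34b, the lowest KANSL1-deficient library had 0.590 CPM and the highest control library 0.572 CPM. All 13 control counts of Trim34b came from control replicate 2. The summed CPM of the 11 listed genes in the table was 747, 559 and 589 in KANSL1-deficient replicates 1 to 3, against 520, 539 and 489 in control replicates 1 to 3. Replicate 1 of the KANSL1-deficient group was the highest, and the other two lay just above the controls.

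Trim25 encodes the ligase that activates the viral RNA sensor RIG-I. It had 273, 192 and 199 CPM in KANSL1-deficient libraries, against 154, 166 and 159 CPM in control libraries. All KANSL1-deficient libraries were higher, replicate 1 by the widest margin. The log2 fold change was 0.47 ± 0.15 (SE; quasi-likelihood test in edgeR, adjusted p = 0.0779).

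Trim12c, which raises interferon and NF-kappaB signalling in mouse cells, had 37.9, 36.4 and 31.8 CPM in KANSL1-deficient libraries, against 23.8, 23.7 and 28.1 CPM in control libraries. The groups did not overlap (log2 fold change 0.49 ± 0.18, SE; quasi-likelihood test in edgeR, adjusted p = 0.118). Trim12a, its close relative, had 218, 156 and 154 CPM in KANSL1-deficient libraries, against 143, 148 and 141 CPM in control libraries. Only replicate 1 stood clearly above the controls (log2 fold change 0.29 ± 0.15, SE; adjusted p = 0.279, same test).

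Trim34a, also known to be induced by interferon, had 11.9, 11.7 and 14.1 CPM in KANSL1-deficient libraries, against 5.61, 9.55 and 9.76 CPM in control libraries. These did not overlap (log2 fold change 0.60 ± 0.28, SE; quasi-likelihood test in edgeR, adjusted p = 0.230). Trim34b and Trim30d had larger estimates on few reads: 42 and 236 counts in the KANSL1-deficient group, against 13 and 123 in the control group. Their log2 fold changes were 1.80 ± 1.28 and 1.02 ± 0.48 (SE; quasi-likelihood test in edgeR, adjusted p = 0.457 and 0.234).

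The remaining interferon-responsive members lay within the spread of the libraries. Trim30a, which restrains NF-kappaB signalling in mice, had 86.9, 41.5 and 55.9 CPM in KANSL1-deficient libraries, against 59.1, 61.7 and 51.9 CPM in control libraries. Its KANSL1-deficient libraries lay on both sides of the controls, and its estimate of 0.09 ± 0.23 (SE) was -0.24 without KANSL1-deficient replicate 1. Trim56 (0.02 ± 0.15), which acts on the DNA-sensing adaptor STING, Trim21 (0.07 ± 0.37), a receptor for antibodies inside cells, and Trim14 (-0.22 ± 0.33), an adaptor without a RING finger, had log2 fold changes smaller than or close to their SE.

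**Figure D4:**
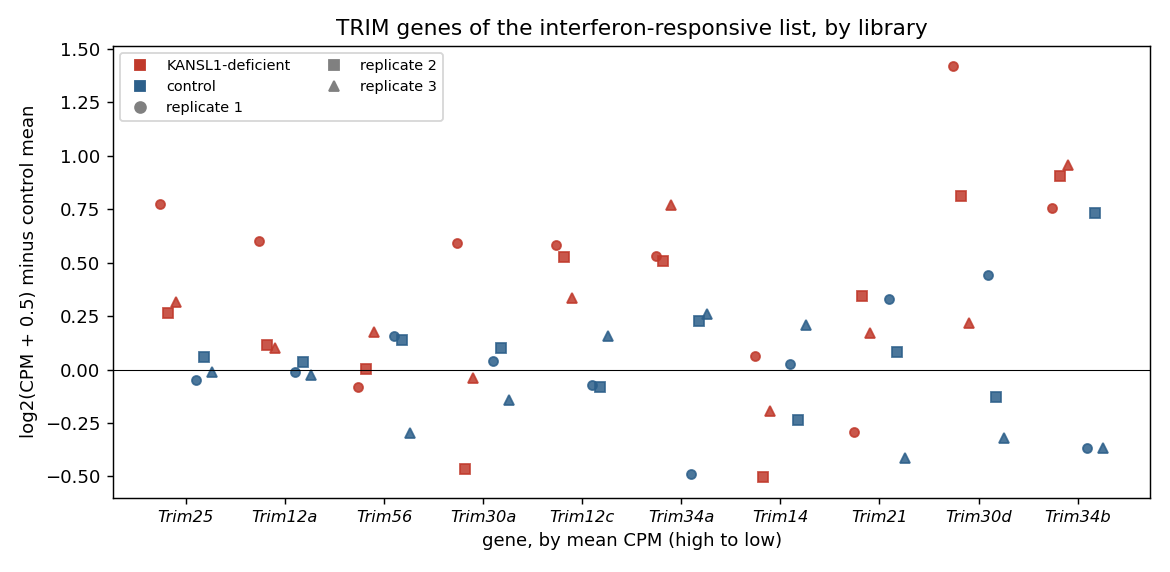
Log2(CPM + 0.5) of the 10 tested interferon-responsive TRIM genes minus the control mean of each gene, with KANSL1-deficient libraries (red) left of control libraries (blue) and a marker shape for each replicate. KANSL1-deficient replicate 1 is the highest library for Trim25, Trim12a, Trim30a, Trim12c and Trim30d, and no gene passed the adjusted threshold.

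Most of these genes lie side by side on chromosome 7, where 9 members lie within chr7:103868000-104157056 (GRCm39). All but Trim30b, 8 genes, were tested. Of their estimates 7 were positive, 1 (Trim6, -1.28 ± 1.03) was negative, the median was 0.44 and none was called. The summed CPM of the cluster was 381, 272 and 273 in KANSL1-deficient replicates 1 to 3, against 255, 257 and 246 in control replicates 1 to 3. Close copies limit these counts. Of the 50-base words in their transcripts, 56.8% for Trim34b and 39.8% for Trim34a also occur in another gene, as do 36.3% for Trim5, 33.0% for Trim12c, 10.4% for Trim12a, 7.49% for Trim30d and 5.98% for Trim30a.

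Interferon-stimulated genes are known for a response element with paired GAAA letters. The core described above stood in 2.98% of all promoter windows and in 5 of the 56 TRIM windows (8.93%), those of Trim5, Trim12c, Trim30a, Trim30d and Trim26. They are shown as 40 bases around the match, with the match in capitals (here on the other strand, so that the words read TTTC), because 4 of them lie in the chromosome 7 cluster and are alike in pairs.

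Trim5, RefSeq GRCm38.p6, chr7:104288131-104288170, minus strand: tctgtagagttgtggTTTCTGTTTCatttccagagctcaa
Trim12c, RefSeq GRCm38.p6, chr7:104353354-104353393, minus strand: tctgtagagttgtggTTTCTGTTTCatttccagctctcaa
Trim30a, RefSeq GRCm38.p6, chr7:104465205-104465244, minus strand: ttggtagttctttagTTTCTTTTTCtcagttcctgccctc
Trim30d, RefSeq GRCm38.p6, chr7:104507866-104507905, minus strand: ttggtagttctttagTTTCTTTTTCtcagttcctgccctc
Trim26, RefSeq GRCm38.p6, chr17:36836971-36837010, plus strand: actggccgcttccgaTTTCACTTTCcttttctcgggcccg

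The Trim30a and Trim30d windows were identical in 40 of 40 bases, and those of Trim5 and Trim12c in 38 of 40. Each of these matches ended between 20 and 40 bases before the start. The Trim26 match began 160 bases before the start, and a second match overlapped it. No gene that holds the element passed the threshold in edgeR, so their directions are estimates only. A link between the element and the estimates was not tested. Trim12c, Trim30d and Trim5 had positive estimates (0.49, 1.02 and 0.39), that of Trim30a was 0.09, and Trim26 was lower by estimate.

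Trim26, which regulates antiviral signalling, had 36.8, 22.7 and 28.7 CPM in KANSL1-deficient libraries, against 52.1, 33.8 and 47.8 CPM in control libraries. KANSL1-deficient replicate 1 was above control replicate 2, so the groups overlapped. The log2 fold change was -0.60 ± 0.22 (SE; quasi-likelihood test in edgeR, adjusted p = 0.129).

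None of the other tested PRY-SPRY members passed. Trim11 had 879, 780 and 619 CPM in KANSL1-deficient libraries, against 633, 840 and 702 CPM in control libraries. The groups overlapped widely (log2 fold change 0.07 ± 0.15, SE; -0.08 with library totals). Trim35, first described in mouse blood cells, had 202, 256 and 206 CPM in KANSL1-deficient libraries, against 195, 163 and 212 CPM in control libraries, again overlapping (0.22 ± 0.14). Trim27 (0.05 ± 0.16), Trim39 (-0.03 ± 0.19), Trim41 (-0.21 ± 0.20), Trim65 (0.12 ± 0.21) and Trim68 (-0.35 ± 0.39) also overlapped between the groups. The less abundant Trim16 (0.00 ± 0.53) and Trim69 (0.75 ± 0.91) had standard errors as large as their estimates or larger.

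Trim17, a ligase known for a role in the death of neurons, had 100, 114 and 96 counts in KANSL1-deficient libraries, against 63, 34 and 67 counts in control libraries. The groups did not overlap, and the log2 fold change of 1.01 ± 0.39 (SE) missed the threshold (quasi-likelihood test in edgeR, adjusted p = 0.148). It is uncertain, since 17.7% of its 50-base words also occur in the histone gene H2ac25, which overlaps its gene model on the same strand. H2ac25 averaged 192 CPM in KANSL1-deficient and 155 CPM in control libraries.

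A few members carry other kinds of domain. Trim37 encodes a ligase that limits the assembly of centrosomes. It had 36.0, 47.7 and 47.9 CPM in KANSL1-deficient libraries, against 33.9, 16.9 and 32.9 CPM in control libraries. The groups were separated by a narrow gap, and control replicate 2 stood low (log2 fold change 0.65 ± 0.25, SE; quasi-likelihood test in edgeR, adjusted p = 0.144).

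Trim45, which has a filamin domain, had 9.05, 7.82 and 7.41 CPM in KANSL1-deficient libraries, against 11.8, 11.9 and 21.5 CPM in control libraries. All KANSL1-deficient libraries were lower, and control replicate 3 was far above the other two controls. The log2 fold change was -0.89 ± 0.29 (SE; quasi-likelihood test in edgeR, adjusted p = 0.0838), and 4 of the 16 settings called it. Trim23, which ends in an ARF GTPase domain, did not pass (-0.03 ± 0.16).

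Trim13, the other member anchored in the endoplasmic reticulum membrane, did not pass. It had 24.1, 29.6 and 18.2 CPM in KANSL1-deficient libraries, against 15.6, 24.3 and 35.5 CPM in control libraries. All its KANSL1-deficient libraries lay within the range of the controls (log2 fold change -0.07 ± 0.29, SE; quasi-likelihood test in edgeR, adjusted p = 0.927). The lncRNA Dleu2 overlaps Trim13 on the opposite strand over 3131 bp.

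Members with no further domain did not pass either. Trim8, a regulator of NF-kappaB signalling, had 69.7, 64.7 and 75.7 CPM in KANSL1-deficient libraries, against 72.6, 70.5 and 59.3 CPM in control libraries, which overlapped (log2 fold change 0.05 ± 0.15, SE). Trim44, which lacks a RING finger, had an estimate of -0.32 ± 0.20, and Trim29 one of -0.69 ± 0.86. Of the NHL-repeat members, Trim32 (0.23 ± 0.22), mutated in a human muscular dystrophy, was the most abundant at 11.0 FPKM. Trim3 (-0.95 ± 0.76) and Trim2 (-0.24 ± 0.60), known from neurons, were below 0.3 FPKM. The microtubule-associated Trim46 (0.38 ± 0.52) and Trim36 (0.88 ± 1.28), and Trim80 (0.28 ± 0.64), were below 1 FPKM as well.

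Among the 15 members that could not be tested are genes best known from muscle, gut, testis, neurons or early embryos. Besides Trim66, Trim15 was read almost only in control mice, with 0, 0 and 1 counts in KANSL1-deficient libraries, against 18, 4 and 9 counts in control libraries. Scaled to depth, the ratio of control over KANSL1-deficient was 28.8 (exact 95% interval 4.81 to 1175, counting error only). The 18 counts came from 1 mouse, and the groups did not overlap. Trim15 (GRCm39, chr17:37171583-37178102, minus strand) lies beside Trim26 (chr17:37148026-37170290, plus strand), with the 3' ends of both genes facing each other. Trim26 averaged 44.6 CPM in control libraries, where Trim15 averaged 0.481 CPM. Whether reads running past the end of Trim26 were counted for Trim15 was not tested.

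Read only in KANSL1-deficient mice were Trim43a, a gene of the early embryo, with 17, 7 and 0 counts against 0 in every control library, and Trim71, a stem cell gene also known as Lin41, with 0, 7 and 7 counts against 0. With 3 counts put in for the control group they were 8.60-fold and 5.02-fold higher. The KANSL1-deficient counts were taken as exact, so these values are not lower bounds. One KANSL1-deficient library of each was at 0 as well, so the groups overlapped, and 45.8% of the 50-base words of Trim43a also occur in another gene. Trim47 summed to 34 counts in KANSL1-deficient and 10 in control libraries, Trim9 to 6 and 28, Trim58 to 2 and 16, Trim72 to 12 and 5, and Trim30b to 21 and 15. The other 6, Trim38, Trim50, Trim55, Trim61, Trim67 and Trim75, had at most 7 counts in a group.

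Genes that work with the family were counted in the same fit, from lists chosen for their function. TRIM-related genes with other names did not pass in 5 of 5 tested cases. Pml, the scaffold of nuclear bodies, had 94.0, 63.2 and 86.4 CPM in KANSL1-deficient libraries, against 44.1, 59.8 and 54.0 CPM in control libraries. All 3 were above the controls (log2 fold change 0.63 ± 0.18, SE; quasi-likelihood test in edgeR, adjusted p = 0.0590). Mid1, which binds microtubules, averaged 1.97 CPM in KANSL1-deficient and 5.32 CPM in control libraries (-1.43 ± 0.48; adjusted p = 0.0905, same test). DESeq2 called 2 of the 5 (14.2% of all genes), and the unadjusted p of edgeR was under 0.05 for 2 (22.6% of all genes).

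Of 27 tested ubiquitin-activating and ubiquitin-conjugating enzymes, which charge and hand over the ubiquitin, 3 were higher (11.1%, against 3.85% of all genes) and none lower, and the median log2 fold change was 0.14. The 3 were Ube2c (1.80 ± 0.35), the E2 of the anaphase-promoting complex and itself on the G2/M list, Ube2h (0.57 ± 0.12) and Ube2e3 (0.50 ± 0.13). None was called without control replicate 2 or without KANSL1-deficient replicate 2, and 1 without KANSL1-deficient replicate 1.

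Of 31 tested genes of nucleic acid sensing, the pathway on which Trim25 and Trim56 act, 2 were higher and 1 was lower, 9.68% in all against 6.76% of all genes, with a median log2 fold change of -0.07. Tlr7, a receptor for viral RNA, had 2.61, 0.801 and 1.80 CPM in KANSL1-deficient libraries, against 0, 0.0440 and 0.176 CPM in control libraries. All KANSL1-deficient libraries were higher, at a low level. The signalling adaptor Traf2 had a log2 fold change of 0.55 ± 0.14 and the Toll-like receptor adaptor Myd88 one of -0.83 ± 0.20. Leaving out any 1 library gave counts between 0 and 2 in place of 3.

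Of 31 tested genes of the interferon response, 8 were higher (25.8%, against 3.85% of all genes) and none lower, with a median log2 fold change of 0.66, while the interferon-responsive TRIM genes had 0 of 10 called and a median of 0.38. The difference between these 2 lists was not tested. Ifit1 (2.66 ± 0.41) and Oas3 (1.76 ± 0.42), which bind viral RNA, had the larger changes among the 4 genes with the smallest p, beside Dtx3l (0.74 ± 0.15) and the receptor gene Ifngr1 (0.54 ± 0.12). The CPM summed over the 32 listed genes was 6531, 5596 and 4965 in KANSL1-deficient replicates 1 to 3, against 3818, 4101 and 4268 in control replicates 1 to 3. Ifngr1 alone made up 3339, 3056 and 2548 CPM of these sums in KANSL1-deficient replicates 1 to 3, against 1986, 2012 and 2160 CPM in control replicates 1 to 3. Leaving out any 1 of the 6 libraries gave counts between 1 and 5 in place of 8.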

How the data were processed

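RNA-seq libraries of sorted double-positive thymocytes from 6 mice were put into groups by their labels, and all 6 were used. Per the submitters' processing notes, the tools were STAR, featureCounts and DESeq2 (with versions not given in the sources used here), and GRCm39 was their build. Deposited by the authors were whole-number read counts per gene and library, and FPKM values for the same genes. Per the file headers, the authors' comparison also gives for each gene a p-value, a log2 fold change, its linear ratio and a mean normalized signal, KANSL1-deficient over control. Poly(A) RNA was selected, and a strand setting for the counting was not given in the sources used here.

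Counts were tested in edgeR 4.0.16 (R 4.3.3) by the quasi-likelihood method over all genes (TMM scaling, minimum count 10, minimum total 15, robust shrinkage, Benjamini-Hochberg adjustment at 0.05 over 15353 genes). The standard error is the size of the log2 fold change divided by the square root of F. CPM values are scaled by TMM. The procedure was tested on simulated data. Labels number separate mice, so p-values measure the spread between these mice. No 2 libraries agreed within counting noise. Intervals cover counting error only, and floors allow for counting error only in the group without reads.

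Members named are those past the threshold, the 10 with the highest FPKM, the tested PHD-bromodomain and interferon-list members, the 8 with the smallest p that missed the threshold, and those read in 1 group only with at least 10 counts. Other members are given by class, and Trim15 and the group sums of the low members were chosen after their values were seen. Up to 4 called genes per related list are named by smallest p, and Pml, Mid1 and the named lineage markers were added after their values were seen. Members and lists were chosen with earlier results of these data known. As alternatives, the scaling (library totals or median of ratios), the filter (none, or at least 5 CPM in 3 libraries) and the test (DESeq2 1.42.0, limma-voom or limma 3.58.1 on log2 of FPKM plus 1 or 0.1) were changed, a block by replicate number was added, and libraries were left out in turn. Promoters are RefSeq windows of 250 bases before a start in GRCm38.p6. Shared 50-base words were counted between GENCODE M21 transcripts, found for all 56 members. Coordinates of genes are those of the files. Values of some marker genes are not reported here.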

Additional observations from a re-analysis of the deposited data

How the results depend on the processing

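Trim59 and Trim62 kept their direction and their call in all 16 settings, with adjusted p up to 0.0366 and 0.0492. The count of members called higher (1) was 3 with no filter, 2 with at least 5 CPM in 3 libraries and 3 with DESeq2; that of members called lower (1) was 2 with library totals, 3 with no filter, 2 with at least 5 CPM and 2 with DESeq2. The added calls were Trim25, Trim45, Trim24, Trim26 and Trim37. With any library left out both counts were 1. The members' median (0.07) was -0.074 with library totals, -0.036 and -0.061 on log2 of FPKM plus 1 and plus 0.1, -0.029 on the last with no filter, and 0.04 to 0.12 with a library left out. Library totals moved the median of all genes to -0.17 from -0.02, and 27.7% of called genes were then higher, beside 56.9%.

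Over all genes, 1038 were called, 1729 with no filter, 2009 with DESeq2, 210 on log2 of FPKM plus 0.1 with no filter, and 283 to 811 with a library left out. The lowest of these were 283, 305 and 525 without KANSL1-deficient replicates 1, 2 and 3 and 339 without control replicate 2. The replicate numbers gave no sign of pairing (correlations of deviations -0.05, -0.02 and -0.10 for equal numbers). With 3 mice per group these correlations cannot settle whether equal numbers share a litter or day, which the labels do not state. With a replicate block 406 genes were called, Trim59 and Trim62 among them. In the related lists the block left 1 of 3 ubiquitin enzymes, 0 of 3 sensing genes, 2 of 8 interferon response genes and 1 of 5 corepressor genes, and it changed no member's call.

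The other counts of called genes that moved, listed as ubiquitin enzymes, sensing, interferon response and corepressor genes (3, 3, 8 and 5), were as follows. DESeq2 called 7 sensing, 15 interferon and 8 corepressor genes; no filter 7 sensing and 14 interferon genes; at least 5 CPM 5 sensing and 13 interferon genes; library totals 4 interferon and 3 corepressor genes. Log2 of FPKM plus 1 gave 1 ubiquitin enzyme, 3 interferon and 1 corepressor genes, plus 0.1 gave 1, 3 and 0, and plus 0.1 with no filter gave 0, 0, 1 and 0 over the 4 lists. With a library left out the lowest and highest counts were 0 and 3, 0 and 2, 1 and 5, and 0 and 4. Other-named TRIM genes (0) had 2 calls with no filter or DESeq2, 1 with at least 5 CPM, and 0 to 1 with a library left out. SMAD genes (0) had 1 with library totals, no filter, at least 5 CPM or DESeq2. G2/M genes (24) had 10 on log2 of FPKM plus 0.1 with no filter, and 13 to 22 with a library left out.

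Some members near 0 changed sign without a call. With library totals, and on log2 of FPKM plus 1, plus 0.1 and plus 0.1 with no filter, Trim11 was at -0.084, -0.087, -0.088 and -0.088, Trim8 at -0.095, -0.088, -0.093 and -0.093, Trim30a at -0.060, -0.11, -0.12 and -0.12, Trim56 at -0.13, -0.11, -0.12 and -0.12, and Trim21 at -0.074, -0.037, -0.061 and -0.061. With a library left out the estimates ran from -0.049 to 0.20 for Trim11, -0.037 to 0.11 for Trim8, -0.34 to 0.26 for Trim13, -0.24 to 0.31 for Trim30a, -0.12 to 0.088 for Trim56, -0.20 to 0.015 for Trim33 and -0.13 to 0.26 for Trim21. The cause of these changes was not tested. Low counts limit the untested members, for which only counting intervals can be given.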
